A study of Mus musculus with 26 samples.

Results

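TOX, TOX2, TOX3 and TOX4 form a small family of DNA-binding proteins, and their 4 genes (*Tox*, *Tox2*, *Tox3* and *Tox4*) were followed here in tumor-specific CD8+ T cells. The genes were taken by symbol, and each one was the sum of its annotated transcripts. They made up 4 of the 35865 genes that received counts. The cells, TCRTg101, carry a transgenic T cell receptor that recognizes C1498 cells, a transplantable mouse leukemia. The study's methods describe sorting by flow cytometry at times after adoptive transfer, with day 0 among them. The day 0 cells are labelled as naive, and the labels do not state whether they had been transferred. Low-input RNA libraries were made from 14 cell samples, and 1 further day 0 library was made with oligo-dT priming. The control group held 2 libraries of naive TCRTg101 at day 0 and 1 library from leukemia-free mice, labelled as untreated, at day 18. Leukemia-bearing mice gave early liver (day 7, 2 libraries), mid liver (days 13, 13 and 14, 3 libraries), late liver (days 18 and 16, 2 libraries), early spleen (day 7, 2 libraries) and mid spleen (day 14, 1 library). Undivided cells, which had kept their division dye, gave 1 library at day 18. The control and undivided libraries are labelled as spleen, so that leukemia and tissue changed together whenever liver libraries were compared with the controls. All mice are labelled as C57BL/6, wild type and 6 weeks old, and the study's methods describe Tg101 mice crossed onto a Rag2-/- background, which the labels do not mention. The receptor came from a single T cell clone and the leukemia is a single line, which limits these groups as a model of T cells in leukemia. Whether a library pooled several mice is not stated, so that the tests measure the spread between libraries, which may in part be technical.

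Members of the family share an HMG box, a domain that binds DNA by its shape rather than by a strict sequence. TOX is induced downstream of the antigen receptor through calcineurin and NFAT, and in CD8+ T cells under chronic stimulation it is required for the program known as exhaustion. TOX2 is the closest relative in these cells and is also known from follicular helper T cells. TOX3 is best known from neurons and epithelia, and TOX4 is a widely expressed subunit of the PTW/PP1 phosphatase complex, which acts on chromatin and RNA polymerase II.

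*Tox* (ENSMUSG00000041272.11) lies on the reverse strand at chr4:6686353-6991557 of GRCm38, *Tox2* (ENSMUSG00000074607.11) on the forward strand at chr2:163203125-163324170, *Tox3* (ENSMUSG00000043668.13) on the reverse strand at chr8:90247040-90348343, and *Tox4* (ENSMUSG00000016831.12) on the forward strand at chr14:52279146-52296401. The coding stretch of 90 bases in which the 4 genes are most alike is shown because reads from such a stretch are the ones that could be given to the wrong member. It encodes the start of the HMG box. It lies in exon 5 of Tox-201 (chr4:6722226-6722315), exon 5 of Tox2-202 (chr2:163315845-163315934), exon 5 of Tox3-201 (chr8:90254363-90254452) and exon 6 of Tox4-201 (chr14:52287354-52287443). Each sequence runs 5′ to 3′ on the strand of its gene, and capitals mark the 64 bases that are identical in all 4.
Tox: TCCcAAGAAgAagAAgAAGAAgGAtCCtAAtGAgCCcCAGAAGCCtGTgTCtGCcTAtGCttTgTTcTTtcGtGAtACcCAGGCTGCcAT
Tox2: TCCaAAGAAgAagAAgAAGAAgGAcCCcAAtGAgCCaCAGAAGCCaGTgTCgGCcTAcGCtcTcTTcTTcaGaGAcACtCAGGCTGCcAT
Tox3: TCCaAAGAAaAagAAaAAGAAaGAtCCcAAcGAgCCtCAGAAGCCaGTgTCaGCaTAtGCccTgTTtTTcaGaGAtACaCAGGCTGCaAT
Tox4: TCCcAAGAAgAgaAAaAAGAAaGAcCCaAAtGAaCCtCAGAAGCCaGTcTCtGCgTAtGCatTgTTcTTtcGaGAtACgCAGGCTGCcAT
Within this stretch *Tox2* and *Tox4* each matched *Tox* at 84.4% of positions and *Tox3* at 80.0%. The longest run shared by all 4 was 8 bases. No 31-base word of any annotated transcript was shared between members, on either strand, so that reads could be assigned within the family. Words shared with other genes made up 3.91% of *Tox*, mostly with the opposite-strand gene model *Gm11802*, which overlaps it by 260 exonic bases, 0.241% of *Tox2* and none of *Tox3*. In *Tox4* they made up 27.4%, of which 12.5% were shared with *Mettl3* and 1.96% with *Rab2b*, neighbors on the opposite strand, and 11.1% with the gene model *Gm5828*. *Mettl3* was at 31.35 to 68.65 CPM (counts scaled to a common library size) and *Gm5828* at 0 to 0.799 CPM in these libraries. Whether counting used the strand is not stated, so part of the *Tox4* level may belong to these neighbors.

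Library totals ranged from 22918996 to 71358287 estimated counts. All 8 CD8 T cell markers exceeded 1 CPM in every library, with a summed level of 4675 to 10150 CPM over the 14 low-input libraries. The early liver libraries, with the same labelled day and tissue, stood apart from each other. *Pdcd1*, which encodes PD-1, was at 152.5 CPM in replicate 1 and 2.61 CPM in replicate 2. *Nr4a2*, a receptor-induced nuclear receptor, was at 323 and 22.3 CPM. Results for early liver are therefore given for each replicate. Summed markers of hepatocytes (6 genes) were at most 0.740 CPM in controls, with all 6 below 1 CPM. They were at 1.77 and 7.29 CPM in early liver, at 2.39 to 153.9 CPM in mid liver and at 63.7 and 262.6 CPM in late liver, where all 6 exceeded 1 CPM. Summed macrophage markers (6 genes) were at 417.1 and 41.6 CPM in the day 0 controls and 1.64 CPM in the day 18 control. They were at 0.540 to 5.28 CPM in mid liver and 6.08 and 7.98 CPM in late liver. Markers of B cells (6 genes), natural killer cells (4), CD4 T cells (2), liver endothelium (5), myeloid or C1498 cells (9) and erythroid cells (6) summed in controls to 555.8 to 699.3, 0.644 to 5.50, 0.290 to 6.65, 126.5 to 164, 9.34 to 426.5 and 135.2 to 20140 CPM. In mid and late liver together they summed to 472.5 to 807.4, 1.99 to 5.77, 4.68 to 9.47, 65.8 to 144.9, 3.77 to 50.1 and 5.55 to 213 CPM. The day 0 and day 18 controls differed in several lists. The myeloid or C1498 sums were 426.5 and 101.2 CPM at day 0, against 9.34 CPM at day 18. The erythroid sums were 5163 and 20140 CPM at day 0, against 135.2 CPM at day 18. Natural killer and CD4 T cell sums were also higher in both day 0 controls than in the day 18 control. The B cell sum was mostly *Ighm* and the endothelial sum mostly *Pecam1*. The CD4 T cell sum in mid and late liver was mostly *Zbtb7b* (3.82 to 8.91 CPM), with *Cd4* itself at 0.413 to 0.980 CPM. *Cd4* was at 5.27 and 2.61 CPM in the day 0 controls and 0.129 CPM in the day 18 control. The part of these cells in the results below was not tested. In bulk RNA, a change in the share of cells that express a gene cannot be told apart from a change per cell.

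*Tox*, the exhaustion-associated member, was expressed in every library and rose in mid and late liver. Levels are CPM scaled by TMM factors over all 15 libraries. The day 0 controls were at 32.0 CPM in the TG series and 54.0 CPM in the XC series, the series being the prefix in the sample titles that was taken as the sequencing batch. The day 18 control (XC) was at 78.6 CPM and undivided cells at 87.5 CPM. Cells that met no leukemia and cells that did not divide in leukemia-bearing mice therefore already had *Tox* transcripts.

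Early liver libraries were at 92.0 and 81.3 CPM, early spleen libraries at 85.4 and 64.3 CPM, and the mid spleen library at 96.8 CPM. All of these lay above the day 0 controls, and all but early spleen replicate 2 also lay above the day 18 control, by 1.04 to 1.23 times. Mid liver libraries were at 51.5 CPM (TG), 153.4 and 197.0 CPM (XC), and late liver libraries at 140.5 CPM (TG) and 272.8 CPM (XC). Both late libraries lay above all 3 controls, and the mid library of the TG series lay below the day 18 and one day 0 control of the XC series.

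Ordered by group means, *Tox* was at 43.0 ± 15.6 CPM in day 0 controls (SD, n = 2), 74.9 ± 14.9 CPM in early spleen (n = 2), 78.6 CPM in the day 18 control, 86.7 ± 7.53 CPM in early liver (n = 2), 87.5 CPM in undivided cells, 96.8 CPM in mid spleen, 134.0 ± 74.7 CPM in mid liver (n = 3) and 206.6 ± 93.6 CPM in late liver (n = 2). From early spleen to mid spleen, neighbors in this order differed by less than the SD of the early spleen group, and mid spleen and mid liver differed by less than the SD of mid liver. The mid and late liver means differed by less than their own SDs, and in both groups the TG library was the lowest. These SDs therefore include the difference between the series. Within the XC series both mid liver libraries (153.4 and 197.0 CPM) lay above mid spleen (96.8 CPM). Late liver lay above mid liver within each series, at 140.5 against 51.5 CPM (TG) and at 272.8 against 153.4 and 197.0 CPM (XC).

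Within the TG series, *Tox* in mid liver was 1.61 times and in late liver 4.39 times the control. In the XC series the mid liver libraries were 2.84 and 3.65 times the day 0 control and 1.95 and 2.51 times the day 18 control. The late liver library was 5.05 times the day 0 control and 3.47 times the day 18 control. The direction was thus the same in both series against the day 0 control. In the XC series it was also the same against the day 18 control, which the TG series lacks.

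**Figure D1:**
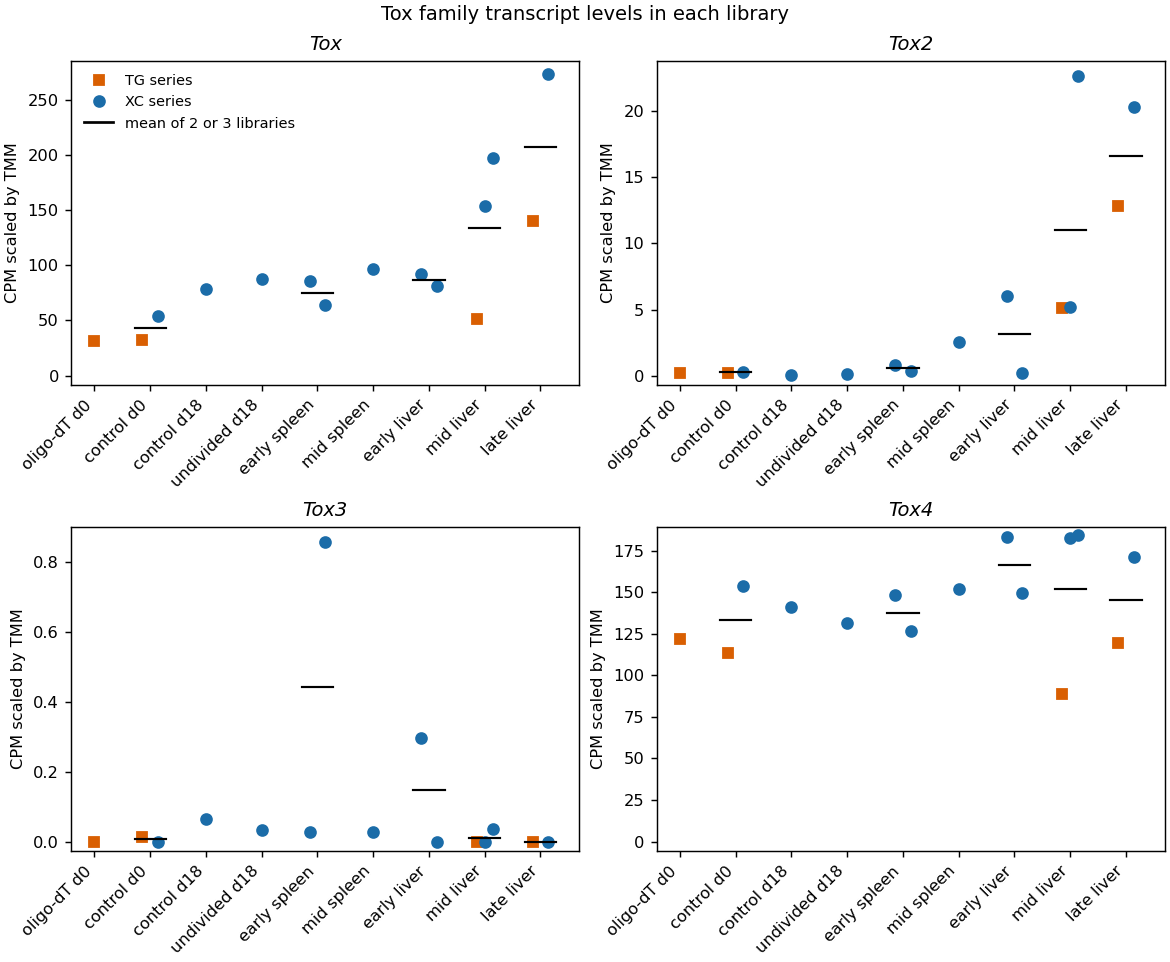
CPM scaled by TMM (vertical axes, which differ between panels) of each family member in each library, by group. Squares are the TG series, circles the XC series and bars the means of groups with 2 or 3 libraries. *Tox* reaches 140.5 and 272.8 CPM in late liver, *Tox2* stays under 1 CPM in controls and undivided cells, *Tox3* stands out in early spleen replicate 2 (0.857 CPM) and early liver replicate 1 (0.296 CPM) and *Tox4* keeps to 88.8 to 184.3 CPM.

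The comparison of mid and late liver with control set liver cells of leukemia-bearing mice against spleen cells without leukemia. Its changes therefore cannot be assigned to leukemia apart from tissue. A model with group and series, fitted to the 11 liver, control and undivided libraries (edgeR's quasi-likelihood test, Benjamini-Hochberg adjustment over 14600 genes), gave *Tox* a log2 fold change of 1.16 ± 0.24 (SE) in mid liver (adjusted p = 0.0220) and of 2.10 ± 0.26 in late liver (adjusted p = 0.00681). Of all genes tested, 31.3% were called in mid liver, 17.3% upward and 13.9% downward, and 37.5% in late liver, 19.8% upward and 17.7% downward. A call alone therefore does not set *Tox* apart. The mid liver call was lost without the series term (adjusted p = 0.122), in the XC series alone (0.182), and without any 1 of 4 libraries (the 2 day 0 controls and mid replicates 1 and 3, 0.0662 to 0.102). The late liver call was lost without late replicate 1 (0.0647) or 2 (0.0802), each of which leaves a single late library whose spread is assumed to be that of the other groups.

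Late liver exceeded mid liver by 0.95 ± 0.26 on the log2 scale, with an unadjusted p of 0.00593 and an adjusted p of 0.910 in the same edgeR fit. No gene was called in that comparison (0% of 14600 genes, 780 at an unadjusted p under 0.05, and 32 called by DESeq2). In early liver *Tox* differed from control by 0.30 ± 0.27 (95% interval -0.32 to 0.91, adjusted p = 0.731 by edgeR), and 0% of genes were called, with 1493 at an unadjusted p under 0.05 and 350 called by DESeq2. A model that added the 3 spleen libraries (15449 genes) gave 0.10 ± 0.27 for early spleen against control (-0.49 to 0.69, adjusted p = 0.977 by edgeR) and 0.20 ± 0.28 for early liver against early spleen (-0.42 to 0.82, adjusted p = 0.850 by edgeR). In these comparisons 0% and 0% of genes were called by edgeR, 970 and 1391 had an unadjusted p under 0.05, and DESeq2 called 14 and 59. The early liver interval, up to 0.91, overlaps that of mid liver, which starts at 0.62.

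*Tox2*, the second member linked to exhausted T cells, was close to absent in controls and rose in mid and late liver. It had 16 and 15 estimated counts in the day 0 controls (0.236 and 0.290 CPM) and 1 count in the day 18 control (0.0322 CPM). Undivided cells had 5 counts (0.164 CPM) and early spleen libraries had 0.805 and 0.393 CPM. Mid spleen, at 2.58 CPM, lay above all of these.

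The early liver libraries differed by 32.4 times for *Tox2*, with 245 counts (6.04 CPM) in replicate 1 and 6 counts (0.187 CPM) in replicate 2. The latter lay within the range of the controls. *Tox* differed between the same libraries by 1.13 times and *Tox4* by 1.23 times, whereas *Pdcd1* differed by 58.4 times, *Lag3* by 51.9 times and *Nr4a3* by 16.4 times. At day 7, therefore, *Tox2* was high in the library with high *Pdcd1*, and *Tox* was alike in both.

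Mid liver libraries had *Tox2* at 5.13 (TG), 5.18 and 22.7 CPM (XC), and late liver libraries at 12.8 (TG) and 20.3 CPM (XC). All 5 lay above every control, undivided and spleen library. Within the TG series the mid and late libraries were 21.7 and 54.2 times the day 0 control. Within the XC series the mid libraries were 17.9 and 78.1 times and the late library 70.1 times the day 0 control.

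The edgeR fit of 11 libraries gave *Tox2* a log2 fold change of 5.60 ± 1.36 in mid liver (adjusted p = 0.0264) and of 6.35 ± 1.42 in late liver (adjusted p = 0.0172). *Tox2* passed the filter of 10 counts in 6 libraries only through liver libraries, in this model and in the one with spleen. Among the controls and undivided cells, only the day 0 controls reached 10 counts. That *Tox2* was tested at all thus rests on the groups where it was high. The difference between late and mid liver was 0.75 ± 1.21 (95% interval -2.08 to 3.58, adjusted p = 0.974 by edgeR). Early liver gave 3.68 ± 1.41 against control (adjusted p = 0.468 by edgeR, unadjusted 0.0332). This became -0.40 without early replicate 1 and 4.59 without replicate 2, the latter with an adjusted p of 0.0246 by edgeR. Each leaves a single early liver library, whose spread is assumed to be that of the other groups. The mid liver call was lost without any 1 library except mid replicate 2 (adjusted p of 0.0609 to 0.103 by edgeR) and with day 0 controls only (0.0605). The late liver call was lost without control day 0 replicate 1 (0.0683) or either late library (0.0940 and 0.0860).

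Early spleen gave 1.34 ± 1.37 for *Tox2* against control (adjusted p = 0.946 by edgeR), and early liver against early spleen gave 2.36 ± 1.38 (adjusted p = 0.590 by edgeR). The latter became -1.69 without early liver replicate 1.

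**Figure D2:**
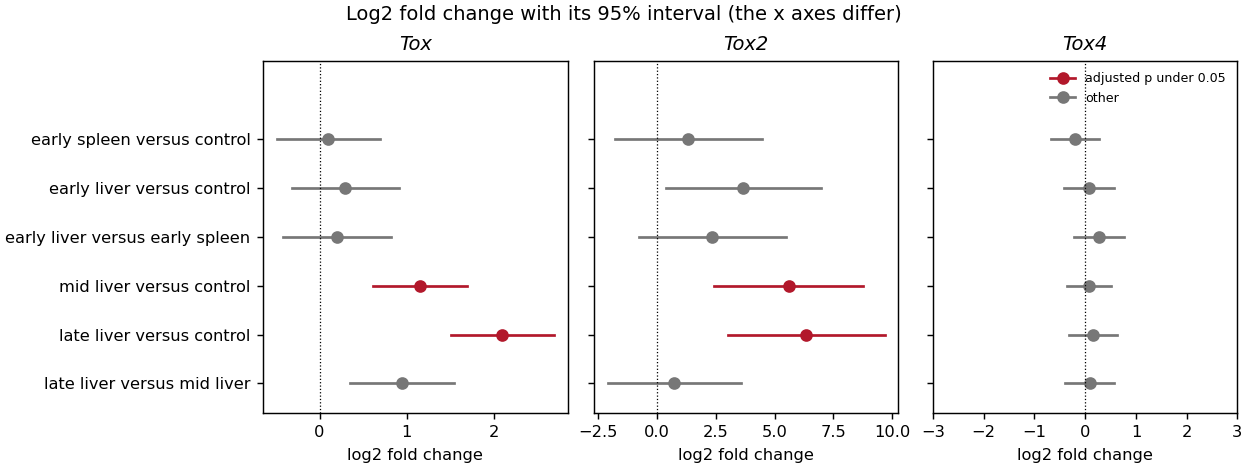
Log2 fold change (horizontal axes, which differ between panels) of *Tox*, *Tox2* and *Tox4* in the 6 comparisons, with lines for the 95% interval. Red marks an adjusted p under 0.05, which *Tox* and *Tox2* reach in mid and late liver against control and *Tox4* reaches in none of the 6.

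Transcripts of *Tox2* start either at the upstream end of the gene or at an internal site, and the RefSeq promoter table (GRCm38.p6) holds 3 windows for the upstream and 2 for the internal starts. The first window of each kind is printed because the deposited counts are per transcript and show which start the *Tox2* reads were given to. Each sequence runs 5′ to 3′ on the forward strand, from 250 bases before to 50 bases after the start. Capitals mark matches to 4 motifs on either strand, the GC box (GGGCGG), the TATA box (TATAAA), the NFAT core (GGAAA) and the AP-1 site (TGANTCA). Neighboring matches may overlap.
Tox2 upstream start, chr2:163202877-163203176: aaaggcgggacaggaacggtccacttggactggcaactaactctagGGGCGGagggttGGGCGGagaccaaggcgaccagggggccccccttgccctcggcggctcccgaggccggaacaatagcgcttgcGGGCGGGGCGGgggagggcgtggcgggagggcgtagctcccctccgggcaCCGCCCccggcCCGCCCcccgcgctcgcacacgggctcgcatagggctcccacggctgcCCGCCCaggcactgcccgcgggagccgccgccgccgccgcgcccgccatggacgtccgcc
Tox2 internal start, chr2:163225203-163225502: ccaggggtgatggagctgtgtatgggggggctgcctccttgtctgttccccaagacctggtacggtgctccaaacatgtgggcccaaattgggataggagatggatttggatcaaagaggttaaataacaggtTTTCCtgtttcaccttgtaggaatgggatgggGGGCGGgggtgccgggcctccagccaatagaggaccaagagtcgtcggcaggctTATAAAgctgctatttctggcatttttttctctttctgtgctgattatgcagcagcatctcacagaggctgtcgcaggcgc
The upstream window held 38 CG dinucleotides, 7 GC boxes and none of the other motifs. The internal window held 7 CG dinucleotides, 1 GC box, 1 NFAT core 117 bases before the start and 1 TATA box 31 bases before it. Over 32851 promoter windows of this length the median was 7 CG dinucleotides, 35.7% held a GC box, 13.6% a TATA box, 61.3% an NFAT core and 7.81% an AP-1 site. These are matches of letters and show no binding. The windows of *Tox3* (chr8:90348203-90348502) and *Tox4* (chr14:52278896-52279195) held 52 and 27 CG dinucleotides and 4 and 5 GC boxes, and neither held a TATA box or an NFAT core. *Tox* was not in the promoter table.

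Upstream-start transcripts (Tox2-202 and Tox2-203) took 74.3% to 86.7% of the *Tox2* counts in mid liver and 75.8% and 75.5% in late liver. Internal-start transcripts (Tox2-201 and Tox2-205) took 25.7%, 11.3% and 13.3% in mid liver and 24.2% and 24.5% in late liver. In counts this was 76.6, 16.2 and 83.3 in mid liver and 143.6 and 177.2 in late liver, against at most 2.15 in a control. In early liver replicate 1 the upstream start took 204.3 counts (83.4%) and the internal start 33.8 counts (13.8%). In mid spleen they took 89.7 counts (93.5%) and 4.52 counts (4.71%). Counts of both starts were thus higher in mid and late liver than in any control, and most counts went to the upstream start. Counts grow with transcript length, and Tox2-202 (2947 bases) is longer than Tox2-205 (1675 bases). In TPM, Tox2-202 and Tox2-205 were at 4.96 and 3.01 in late liver replicate 2 and at 6.58 and 1.90 in mid liver replicate 3. Tox2-202 also ends further 3′ (163324170) than Tox2-201 (163323302) and Tox2-205 (163323102), so reads from that end count for the upstream start. The estimates divide reads from shared exons, and no test was made of these shares.

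**Figure D3:**
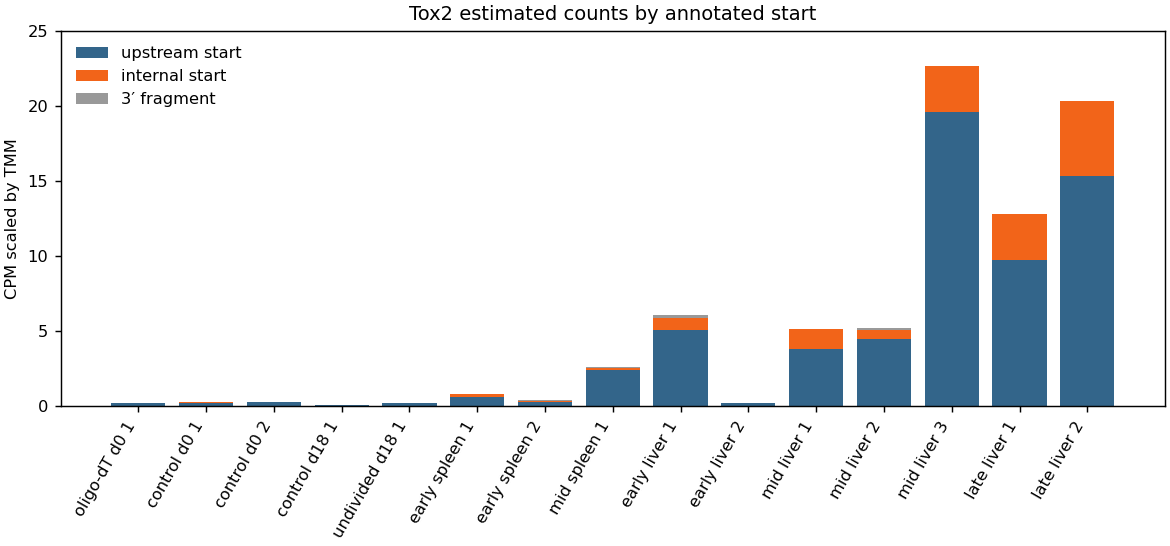
*Tox2* CPM scaled by TMM (vertical axis, stacked) in each library, divided by the annotated start of the transcripts. The upstream start (blue) takes 74.3% or more of the counts in every mid and late liver library, and the internal start (orange) takes 11.3% to 25.7%.

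*Tox3*, the neuronal and epithelial member, was at or near 0 throughout. It had no estimated count in 7 of the 15 libraries, which for counting error alone allows up to 0.0516 to 0.147 CPM (3 counts) depending on depth. A further 6 libraries had 1 or 2 counts. The exceptions were early spleen replicate 2 with 24 counts (0.857 CPM) and early liver replicate 1 with 12 counts (0.296 CPM), and neither was matched by the other library of its group (1 and 0 counts). In early spleen replicate 2 all 6 B cell markers exceeded 1 CPM, among them *Pax5* at 1.18 CPM against 0.0278 CPM in replicate 1. The B cell sum was nevertheless lower in replicate 2, at 503.1 against 539.5 CPM. *Ighm* (477.8 against 521.2 CPM) and *Cd79b* (14.8 against 16.0 CPM) were lower, and the other B cell markers were higher. The 9 myeloid or C1498 markers summed to 42.4 CPM against 3.42 CPM. Unrelated lists were higher in replicate 2 as well, with sums of 18.1 against 0.611 CPM for macrophage, 5.11 against 0.749 CPM for hepatocyte and 23.0 against 1.18 CPM for erythroid markers. The liver endothelium sum was lower, at 129.1 against 168.4 CPM, and was mostly *Pecam1* (121.9 against 167.6 CPM). The other endothelial markers were higher in replicate 2, among them *Stab2* (3.11 against 0.250 CPM) and *Kdr* (3.56 against 0.392 CPM). In early liver replicate 1 *Pax5* was at 0 and the myeloid or C1498 sum was 4.74 CPM. The part of such cells in the *Tox3* counts was not tested. *Tox3* did not pass the filter of 10 counts in 6 libraries, which the other 3 members passed in both models, and no change was called for it without the filter (adjusted p of 0.604 to 1 by edgeR over the 6 comparisons).

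*Tox4*, the phosphatase-complex member, was expressed at similar levels in all groups. Controls were at 113.2 (TG), 153.7 and 141.3 CPM (XC), and undivided cells at 131.4 CPM. Early spleen was at 148.2 and 126.5 CPM, mid spleen at 152.0 CPM and early liver at 183.4 and 149.5 CPM. Mid liver was at 88.8 (TG), 182.4 and 184.3 CPM (XC) and late liver at 119.6 (TG) and 171.2 CPM (XC). The groups overlapped, and the TG series was the lowest in each group that held both series.

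By edgeR, *Tox4* differed from control by 0.08 ± 0.19 in mid liver (95% interval -0.35 to 0.50, adjusted p = 0.769) and by 0.16 ± 0.21 in late liver (-0.32 to 0.64, adjusted p = 0.557). It differed by 0.07 ± 0.22 in early liver (-0.43 to 0.56, adjusted p = 0.933) and by -0.19 ± 0.21 in early spleen (-0.67 to 0.28, adjusted p = 0.950). Late against mid liver gave 0.08 ± 0.21 (-0.40 to 0.57, adjusted p = 0.985), and early liver against early spleen 0.27 ± 0.22 (-0.23 to 0.77, adjusted p = 0.705). These intervals exclude a change of *Tox4* as large as the 2.10 fitted for *Tox* in late liver, but leave room for smaller changes. In the XC series the mid liver libraries were 1.19 to 1.30 times the controls, whereas the mid liver library of the TG series was 0.785 times its control.

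Levels of different genes were compared per length, in TPM, which divides by transcript length as well as by depth. *Tox4* exceeded *Tox* in all controls, with 30.2 against 8.79 TPM, 45.2 against 15.5 TPM and 44.3 against 26.7 TPM. The ratio of *Tox* to *Tox4* was 0.291 and 0.343 in the day 0 controls, 0.601 in the day 18 control, 0.599 in undivided cells, 0.573 and 0.592 in early spleen, 0.598 and 0.605 in early liver and 0.608 in mid spleen. It was 0.658, 0.906 and 1.11 in mid liver and 1.12 and 1.67 in late liver, where *Tox* exceeded *Tox4* in both libraries. This ratio does not depend on the scaling of the library. With all transcripts summed, its values in mid and late liver did not overlap those of any other group. It was 0.505 in the oligo-dT library, against 0.291 in the low-input library of the same series and day. For the coding transcripts Tox-201 and Tox4-201 alone the groups overlapped. Tox-201 was at 6.92 and Tox4-201 at 9.86 TPM in mid liver of the TG series, against 19.92 and 19.89 TPM in undivided cells.

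*Tox2* made up 0.0177% to 0.278% of the summed TPM of the 4 genes in controls, 2.21% to 7.43% in mid liver and 5.99% and 6.20% in late liver. *Tox* stayed 6.54 to 21.0 times higher per length than *Tox2* in these libraries. In the late liver of the XC series, *Tox* was at 75.4, *Tox4* at 45.1 and *Tox2* at 7.97 TPM, and *Tox3* was listed at 0.

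**Figure D4:**
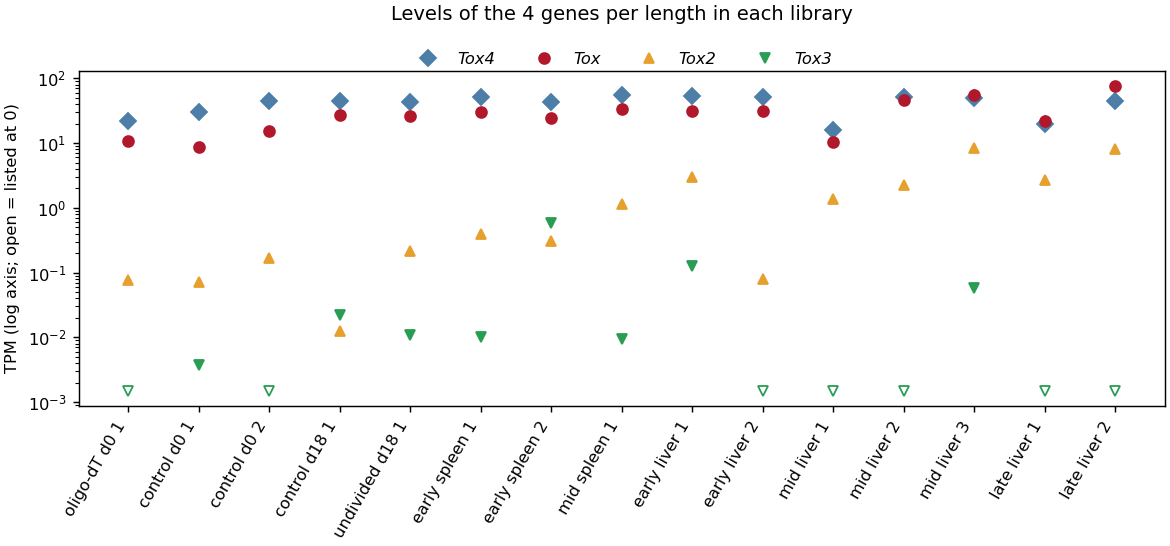
TPM of the 4 genes (vertical log axis) in each library, with open symbols at the foot for genes listed at 0. *Tox4* lies above *Tox* in controls, undivided, spleen and early liver libraries, *Tox* lies above *Tox4* in mid liver replicate 3 and both late liver libraries, and *Tox2* lies between 1.38 and 8.47 TPM in mid and late liver.

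The share of protein-coding transcripts was higher in late liver than in any control for *Tox*, and barely so for *Tox4* (86.0% against 85.9%). For *Tox* the undivided library, at 87.7%, also lay above every control. Mid liver overlapped the controls, and no test was made of these shares. The protein-coding Tox-201 took 74.7% to 86.8% of the *Tox* counts in controls, 79.6% to 89.1% in mid liver and 88.3% and 90.4% in late liver, and transcripts with a retained intron took 11.6% to 22.8%, 7.57% to 20.4% and 5.54% to 10.7%. For *Tox4* the protein-coding share was 79.1% to 85.9% in controls, 85.6% to 91.4% in mid liver and 86.0% and 88.2% in late liver. The oligo-dT library of day 0 cells gave *Tox* at 31.6 CPM, *Tox2* at 0.196 CPM, no *Tox3* count and *Tox4* at 122 CPM, close to the low-input library of the same series. In it the retained-intron share was 0.686% for *Tox*, against 22.8% in that low-input library.

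The pathway that switches *Tox* on was described from a list of 8 NFAT and calcineurin genes. In mid liver 1 of 8 rose and none fell, where 17.3% of all genes rose and 13.9% fell, and the median log2 fold change was -0.12 against -0.06 over all genes. In late liver 1 rose and 1 fell, where 19.8% of all genes rose and 17.7% fell (median -0.08 against -0.03). These counts are near the shares over all genes. The gene that rose was *Nfatc1*, an NFAT factor that is itself induced by NFAT, by 1.30 ± 0.28 in mid liver (adjusted p = 0.0220 by edgeR) and 1.76 ± 0.31 in late liver (adjusted p = 0.0101). The gene that fell in late liver was *Nfatc3*, by 0.84 on the log2 scale (adjusted p = 0.0247 by edgeR), and *Nfatc2* was at -0.14 in mid and -0.30 in late liver with adjusted p of 0.600 and 0.321. None of the calcineurin subunits was called.

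All 3 Nr4a nuclear receptors, early targets of the antigen receptor that act beside TOX in exhausted cells, had positive fold changes in mid and late liver. In mid liver 2 of 3 rose (17.3% of all genes), *Nr4a2* by 4.47 ± 0.91 (adjusted p = 0.0220 by edgeR) and *Nr4a3* by 4.18 ± 0.97 (adjusted p = 0.0248), and *Nr4a1* was at 2.56 ± 0.98 (adjusted p = 0.0797). In late liver 1 of 3 rose (19.8% of all genes), *Nr4a2* by 4.17 ± 0.93 (adjusted p = 0.0170 by edgeR), and the other two were not called, at 0.77 for *Nr4a1* and 2.33 for *Nr4a3*. All 3 had lower fitted levels in late than in mid liver, by 1.79 for *Nr4a1*, 0.30 for *Nr4a2* and 1.85 for *Nr4a3*, with none called, whereas *Tox* had the higher fitted level in late liver.

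Of 8 co-inhibitory receptors linked to TOX, 4 rose in mid and 5 in late liver and none fell, where 17.3% and 19.8% of all genes rose. The medians were 2.90 and 3.63, against -0.06 and -0.03 over all genes. *Pdcd1* rose by 7.71 ± 1.44 and 8.77 ± 1.54, *Lag3* by 6.93 ± 1.35 and 7.82 ± 1.41, and *Tigit* by 4.41 ± 0.66 and 6.06 ± 0.73 in mid and late liver. *Cd160* also rose in both and *Ctla4* in late liver, and *Havcr2*, *Cd244a* and *Entpd1* had positive fold changes that were not called. Of 11 naive and stem-like T cell genes, none rose, 8 fell in mid liver and 7 in late liver (medians -1.45 and -1.64), where 13.9% and 17.7% of all genes fell. *Lef1* fell by 1.47 and 1.64 and *Foxo1*, which keeps T cells quiescent, by 1.45 and 1.71, whereas *Tcf7*, which encodes TCF1 and marks the stem-like exhausted cells, was at -0.84 and -0.87 and not called. Of 8 effector T cell factors, 4 rose in each and none fell (medians 2.94 and 3.05), where 17.3% and 19.8% of all genes rose. *Tbx21*, which encodes T-bet, rose by 4.23 and 3.79, *Eomes* rose by 2.61 in mid liver and was at 2.61 and not called in late liver, and *Prdm1* rose by 2.76 and 3.49.

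The setting in which TOX2 is best known, the follicular helper T cell, was described from 8 genes, of which 6 were tested. In mid liver 3 rose and in late liver 2, and none fell (medians 0.56 and 0.71), where 17.3% and 19.8% of all genes rose. *Icos*, a costimulatory receptor, rose by 2.07 ± 0.24 and 2.25 ± 0.26, *Batf* by 0.75 ± 0.19 and 0.98 ± 0.21, and *Cxcr5*, the follicle-homing receptor, by 2.11 ± 0.61 in mid liver. *Bcl6*, the factor that directs this fate, was at -0.02 and 0.07 and not called.

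Partners of TOX4 and TOX were read against all genes, of which 31.3% were called in mid and 37.5% in late liver. Of the 5 genes of the PTW/PP1 complex, none was called in mid liver and *Ppp1ca*, a catalytic subunit, rose in late liver by 0.94 ± 0.25 (medians 0.30 and 0.11). *Ppp1r10*, which holds the complex together, was at 0.40 and 0.11 and *Wdr82* at -0.44 in each. Of 10 genes of the HBO1 acetyltransferase complex, which TOX binds, *Meaf6* rose in both, *Brpf3* fell in both and *Ing4* fell in mid liver (medians -0.22 and -0.32), and *Kat7*, its catalytic subunit, was at -0.21 and -0.10. Of 25 other HMG-box genes, 23 were tested, of which 5 rose in each and 7 fell in mid and 6 in late liver (medians -0.02 and 0.16). Upward the count is near the share over all genes (17.3% and 19.8%), and downward 13.9% and 17.7% of all genes were called. Those that rose were *Hmgb1*, *Hmgb2*, *Hmgb3*, *Ssrp1* and *Wdhd1* in both, and those that fell in both included *Lef1*, *Tcf7l2* and *Sox4*. In the other 4 comparisons edgeR called no gene of the 9 lists, as it called none of all genes; the DESeq2 calls were not counted by list.

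The genes whose pattern was most like each member were ranked by Pearson's r of log2 CPM over the 14 low-input libraries, among 9025 genes with a mean log2 CPM of at least 3. The libraries share groups and series, so that these are descriptions. For *Tox* they were *Ankrd46* (r = 0.952), *Cd101* (0.951), *Pear1* (0.943), *Plekha2* (0.937) and *Neu3* (0.935). *Cd101* encodes a surface protein that marks terminally exhausted CD8+ T cells. For *Tox2* they were *Osbpl3* (0.991), *Tns1* (0.985), *Endod1* (0.983), *Bub1b* (0.979) and *Kif2c* (0.979), *Bub1b* encoding a kinase of the spindle checkpoint and *Kif2c* a mitotic kinesin. For *Tox4* they were *Aco1* (0.954), *Acly* (0.951), *Rab3gap2* (0.949), *Spata5* (0.948) and *Ankrd27* (0.947). After removal of the series effect the genes of *Tox2* ranked 1 to 6, those of *Tox4* 2 to 17 and those of *Tox* 13 to 56. *Tox* and *Tox2* had r = 0.691 with each other, *Tox* and *Tox4* 0.630, and *Tox2* and *Tox4* 0.270. After removal of the series effect these were 0.832, 0.602 and 0.650.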

How the data were processed

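The authors sequenced low-input RNA in 2 batches and quantified reads with kallisto, and the series in the sample titles (TG or XC) was taken as the batch; demultiplexing (bcl2fastq) and the builds mm10 and GRCm38 are named in the submitters' processing notes, without versions. The authors deposited, for each transcript, an estimated count, which need not be whole, and TPM, normalized for length and depth. GENCODE vM21 (GRCm38) gave the gene of 98.18% of 118783 transcripts; the authors' own annotation version is not given in the sources used here. Estimated counts were summed per gene and over the runs of a library (26 runs, 15 libraries), and rounded for testing. Runs of one library differed by at most 1.08 times for *Tox* and 1.14 times for *Tox4*, over 11 libraries. For *Tox2* the runs differed by at most 1.28 times over the 6 libraries with the higher counts. Low-count libraries were left out of that *Tox2* value, and some differed more. In CPM without TMM, *Tox2* was at 0.554 and 0.233 in the runs of day 0 control replicate 2. In those of day 0 control replicate 1 it was at 0.250 and 0.243.

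Testing covered the genes that reached 10 counts in 6 or more libraries and was done with edgeR 4.0.16 (TMM, robust quasi-likelihood, two-sided) in R 4.3.3, with group and series in the model, and adjusted by Benjamini-Hochberg (threshold 0.05). The SE is the log2 fold change over the root of F. The authors used DESeq2, which served here as an alternative (version 1.42.0). limma 3.58.1 removed the series effect for the correlations (prior count 2). The code was tested on simulated data. Plots used matplotlib 3.10.9 with Python 3.11.15. Depth (22918996 to 71358287 counts) leaves small counting error except for *Tox3* and for *Tox2* in control, undivided, early spleen and early liver replicate 2 libraries. The limit given for a count of 0 is 3 counts and covers counting error only.

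The members and gene lists were chosen with earlier results of these data known. Named genes were the first 3 of each list, those a result turns on, and the 5 genes most like each member. Genes beyond the first 3 that were named as called were chosen after their values were seen. The lists were NFAT and calcineurin genes, Nr4a receptors, co-inhibitory receptors, naive and stem-like genes, effector factors, follicular helper genes, the PTW/PP1 and HBO1 complexes, other HMG-box genes and cell type markers. Alternatives were DESeq2, RLE factors, no series term, the XC series alone, other filters, day 0 controls only, first runs only, counts scaled from TPM, other sets of libraries and each replicate left out. Samples with 1 library per group were given values with no test.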

Additional observations from a re-analysis of the deposited data

Results flagged for a closer look

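Levels in samples outside the tested comparisons lay above all 3 controls in 3 cases. The mid spleen library had *Tox* at 96.8 CPM, against 32.0 to 78.6 CPM in controls, and *Tox2* at 2.58 CPM, against 0.0322 to 0.290 CPM. The undivided library had *Tox* at 87.5 CPM, 1.11 times the day 18 control of the same series, and its *Tox2* lay within the controls. Each is a single library with no test. In the mid spleen library *Pdcd1* was at 32.5 CPM and *Nr4a2* at 44.9 CPM.

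*Tox4* moved in opposite directions in the sequencing series in mid liver. It was 88.8 CPM in mid liver and 113.2 CPM in the control of the TG series, and 182.4 and 184.3 CPM in mid liver and 141.3 and 153.7 CPM in the controls of the XC series. A term for the difference of the effect between the series, added after the data were seen, gave 0.67 ± 0.36 on the log2 scale, XC above TG, with an unadjusted p of 0.112 and an adjusted p of 1 by edgeR. The TG series holds 1 control and 1 mid liver library.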

How the results depend on the processing

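*Tox* and *Tox2* kept a positive fold change in mid and late liver against control under every alternative that gave a value. DESeq2 called 350 genes in early liver, 32 in late against mid liver, 14 in early spleen and 59 in early liver against early spleen, where edgeR called 0. Without the series term *Tox* in mid liver was 1.27, 1385 and 2693 genes were called in mid and late liver, and *Tox4* turned to -0.064 (late against mid liver) and 0.016 (early spleen). Without a filter *Tox2* was called in early liver (3.65, adjusted p = 1.65e-10) and against early spleen (2.36), and 1480, 434, 642 and 984 genes were called in early liver, late against mid liver, early spleen and early liver against early spleen. In the XC series alone *Tox* in mid liver was 1.36, 0 genes were called in mid liver, and *Tox2* did not pass the filter of the liver fit. With day 0 controls only, *Tox4* turned to -0.029 in early and -0.008 in mid liver, *Tox2* in mid liver was 5.07, and 20 and 2373 genes were called in early and mid liver. With counts scaled from TPM *Tox4* turned to -0.099 in early and -0.036 in mid liver. The cause of these changes was not tested.

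With each replicate left out, *Tox* ranged from 0.96 to 1.39 in mid liver, 1.91 to 2.36 in late liver and -0.11 to 0.28 in early spleen, negative without control d0 replicate 2 or early spleen replicate 1 (-0.11 each). *Tox2* ranged from 4.68 to 6.15 in mid liver, 5.88 to 7.03 in late liver, -0.40 to 4.59 in early liver and -1.69 to 3.30 against early spleen. *Tox4* ranged from -0.085 to 0.20 in early liver (-0.031 without the day 18 control), -0.018 to 0.27 in mid liver and -0.14 to 0.19 in late against mid liver. Called genes ranged from 0 to 1902 in early liver, 0 to 3157 in mid liver, 0 to 4126 in late liver, 0 to 162 in early spleen and 0 to 973 in early liver against early spleen. In mid liver 0 or 1 genes were called without either day 0 control or mid replicate 1 or 3, and 2355 without the day 18 control. In late liver 0 were called without either late library, and 148 and 3390 without day 0 control replicates 1 and 2. In early liver 1902 were called without replicate 2, 19 without the day 18 control and 1 without replicate 1. The 162 genes in early spleen were called without replicate 1 and the 973 without early liver replicate 2. The planned fits of the compared groups alone held fewer libraries than the filter asks for, so a filter of 2 libraries, chosen after seeing the data, was used there and changed no call. No paired analysis was possible because the labels give no shared replicate numbers. Group means of the members without TMM or from first runs only moved by more than 1 SD or the counting interval in 10 cases. Groups held 1 to 3 libraries, and low counts limit *Tox3* and the control level of *Tox2*.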
